A study of Sus scrofa with 10 samples.

Results

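The genes described here are the receptors of prolactin and growth hormone and the JAK-STAT-SOCS genes that act below them, namely PRLR, GHR, JAK2, STAT5A, STAT5B, SOCS2, SOCS3 and CISH. They were selected by name, in a list built around PRLR and selected on its difference between these same groups, which was known from earlier results of these data, and were taken by gene symbol from the 19972 protein-coding loci among 43499 loci measured in pig ovaries. A locus carrying the symbol was found for 6 of the 8 genes. SOCS3 was matched through its Ensembl identifier, which brought the number to 7. SOCS2 had no locus of its own and lay inside a locus named CRADD, which is given apart from the others.

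Each of 10 gilts gave 1 library of ovary RNA, and the control and rpFSH treatment groups held 5 gilts each. The feed of all 10 contained altrenogest, an oral progestin that suppresses oestrus, given as a daily dose of 20 mg over 18 days and started at an age of 210 days. Altrenogest was then withdrawn for 2 days, after which the treatment group was injected with 1000 IU of rpFSH, a recombinant pig follicle-stimulating hormone, and the control group with saline. Ovaries were collected at 234 days of age, and the surface follicles were removed before freezing, so the samples stand for the remaining ovary rather than for the large follicles. The pigs are numbered 1 to 5 in each group.

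Prolactin and growth hormone bind to class I cytokine receptors, which have no kinase activity of their own and carry the tyrosine kinase JAK2. Once the hormone is bound, JAK2 phosphorylates the receptor and the transcription factors STAT5A and STAT5B, which enter the nucleus. CISH, SOCS2 and SOCS3 are induced by this kind of signal and dampen it in turn. In the ovary, prolactin is known for acting on the corpus luteum, and growth hormone for acting on follicle growth together with IGF1. All of these are transcripts here, and neither phosphorylation nor hormone levels were measured.

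The ovarian origin of the samples was checked with marker genes. The summed level of 8 oocyte markers was between 5.28 and 22.3 FPKM, and that of 7 granulosa markers was between 16.0 and 202 FPKM. FPKM is a number of fragments scaled to the length of the transcript and to the size of the library, and so is a level per length. Total counts were between 64873797 and 75114003 per pig, and 3 counts, the largest number not taken as different from 0, correspond to between 0.0399 and 0.0462 CPM. Some libraries stood apart. The summed level of 5 luteal markers was 2724 FPKM in control 2, 1422 FPKM in rpFSH 1 and 349 FPKM in rpFSH 4, against 17.5 to 62.5 FPKM in the other pigs. The summed level of 10 markers of ciliated or oviduct epithelium was 127 FPKM in control 5 and 69.4 FPKM in control 2, against 6.28 to 18.1 FPKM in the others. OVGP1 was the most abundant of these markers, at a mean of 10.4 FPKM. The list is called ciliated below for short, but its sum does not measure ciliated cells alone. No luteal or ciliated marker was at or under 3 counts in every pig. Control 5 also had 1789 FPKM of 5 smooth muscle markers, against 65.3 to 484 FPKM in the other pigs. Fits without some of these pigs are given beside the results on the 8 loci, the loci overlapping PRLR and the pathway lists.

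The question of the comparison was which of these transcripts differed in the ovary after rpFSH. Of the 8 loci, PRLR was lower in the rpFSH treatment group and the other 7 did not pass the limits, which are those of the study, an unadjusted P under 0.05 and a log2 fold change above 1 or below -1. Among all 15170 mRNAs tested with edgeR, 3.09% passed these limits, 2.58% on the lower side and 0.508% on the higher side. No mRNA had an adjusted p (Benjamini-Hochberg, edgeR) under 0.05, while 722 had an unadjusted P under 0.05, and DESeq2 gave 88 mRNAs an adjusted p under 0.05. As the list was chosen by the PRLR difference in this contrast, the values of PRLR are a description and not independent evidence.

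**Figure D1:**
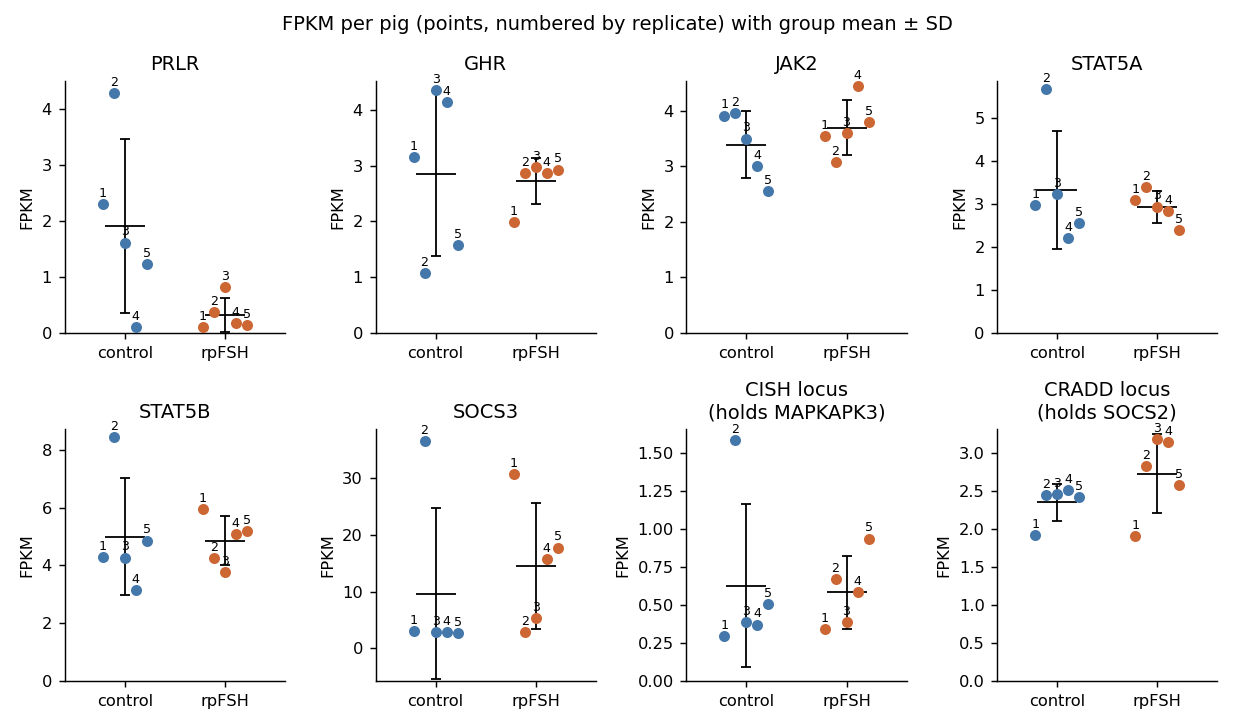
FPKM of each locus (vertical axes, linear, a separate scale per panel) in the 5 control pigs and the 5 rpFSH pigs, with points numbered by pig, the horizontal mark at the group mean and bars of 1 SD. PRLR in rpFSH pigs is at most 0.822 FPKM, GHR spans 1.07 to 4.36 FPKM in controls, and SOCS3 is high in control 2 and in rpFSH 1, 4 and 5.

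PRLR encodes the prolactin receptor. Its locus lies on chromosome 16, minus strand, at chr16:20618696-20810140 (Sscrofa11.1), and is much longer than the RefSeq gene inside it at chr16:20637568-20655881. PRLR was at 2.30, 4.29, 1.61, 0.0989 and 1.22 FPKM in control 1 to 5. It was at 0.0995, 0.368, 0.822, 0.173 and 0.138 FPKM in rpFSH 1 to 5. All 5 rpFSH pigs lay below the median control, yet the groups overlapped, because control 4 had the lowest level of all. PRLR averaged 1.90 ± 1.55 FPKM in controls and 0.320 ± 0.299 FPKM after rpFSH (SD, n = 5 each). PRLR thus had a log2 fold change of -2.46 with an SE of 0.860 and a 95% interval from -4.37 to -0.56 (edgeR adjusted p = 0.992). Counts behind these levels were between 43 and 1799 per pig, so the lowest pigs rest on few reads. In bulk tissue, fewer cells of a type and less RNA per cell cannot be told apart.

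Control 2, with the highest luteal sum, had the highest PRLR level, whereas rpFSH 1 and rpFSH 4, with the next highest luteal sums, were at 0.0995 and 0.173 FPKM. Without these 3 pigs the log2 fold change of PRLR was -1.44 (95% interval -3.74 to 0.85, edgeR adjusted p = 0.996) and the call was lost, while 0.659% of mRNAs passed the limits on the lower side. The ciliated markers were summed at 11.3 to 127 FPKM in controls and at 6.28 to 10.6 FPKM in rpFSH pigs, so the groups did not overlap on this list, and PRLR was lower in the same group. Without control 2 and control 5, the 2 pigs with the highest ciliated sums, the log2 fold change of PRLR was -1.95 (95% interval -4.05 to 0.14, edgeR adjusted p = 0.752) and the call was lost as well, with 0.771% of mRNAs passing on the lower side. The part of these cell types in the PRLR difference was not tested. Leaving out any single pig kept PRLR past the limits in 10 of 10 fits, with log2 fold changes between -3.19 and -1.92.

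**Figure D2:**
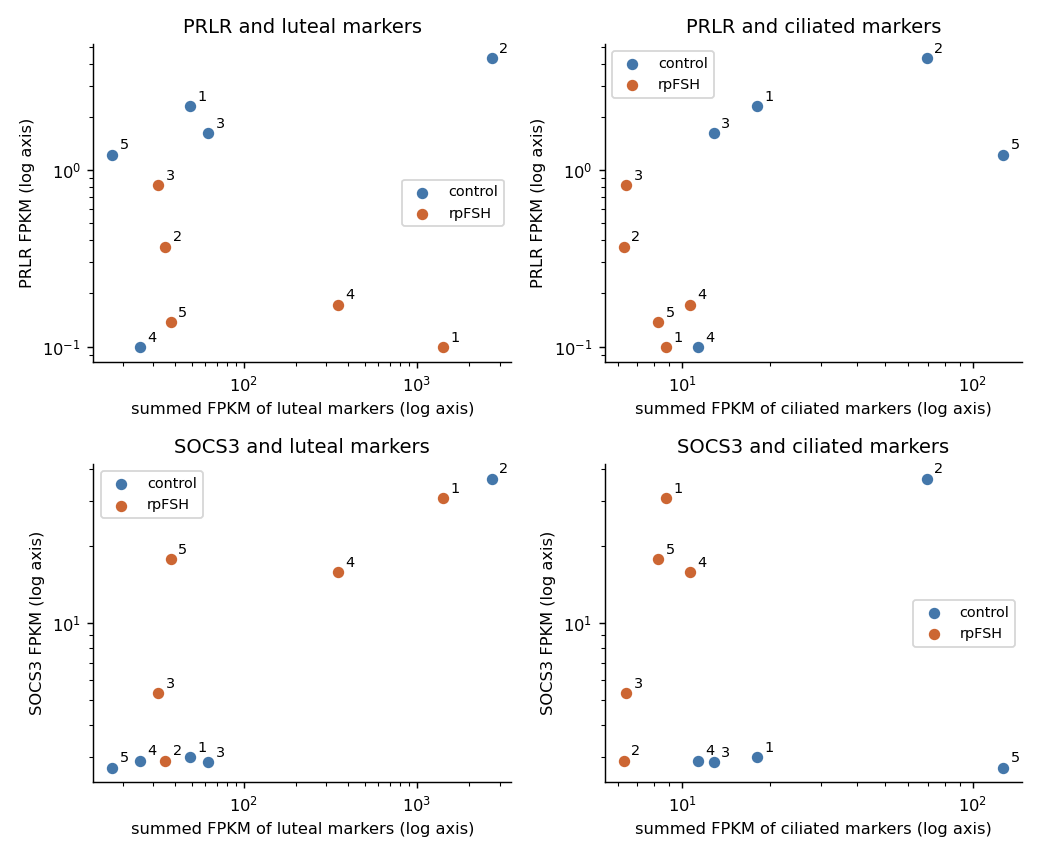
FPKM of PRLR (top) and SOCS3 (bottom) against the summed FPKM of luteal markers (left) and ciliated or oviduct epithelium markers (right), 1 point per pig, numbered within its group, all axes logarithmic. Control 2 is high on PRLR, SOCS3 and the luteal sum, while rpFSH 1 is high on SOCS3 and the luteal sum with PRLR at 0.0995 FPKM.

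GHR encodes the growth hormone receptor and had a locus at chr16:27126352-27422616, plus strand. GHR was at 3.15, 1.07, 4.36, 4.14 and 1.57 FPKM in control 1 to 5. It was at 1.99, 2.87, 2.98, 2.86 and 2.93 FPKM in rpFSH 1 to 5. The treated pigs lay inside the range of the controls, and all 5 lay below the control median. GHR averaged 2.86 ± 1.48 FPKM in controls and 2.73 ± 0.415 FPKM after rpFSH (SD, n = 5 each). Its log2 fold change was -0.00 (SE 0.363, 95% interval -0.81 to 0.80, edgeR adjusted p = 1.00). The lowest controls were control 2 and control 5, the 2 pigs with the highest ciliated sums, and without them the log2 fold change of GHR was -0.44 (95% interval -0.87 to -0.00, edgeR adjusted p = 0.728), which is within the fold limit.

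JAK2, the kinase that both receptors carry, had a locus at chr1:216847426-217002166, minus strand, which is joined in the table with a second Ensembl gene and holds a RefSeq pseudogene, so reads of these could not be separated. JAK2 was at 3.91, 3.96, 3.50, 3.00 and 2.56 FPKM in control 1 to 5. It was at 3.54, 3.08, 3.59, 4.44 and 3.80 FPKM in rpFSH 1 to 5. The groups overlapped, and JAK2 had the narrowest spread of the 7 matched genes, with a coefficient of variation of 15.4% over the 10 pigs. JAK2 had a log2 fold change of 0.20 (SE 0.152, 95% interval -0.14 to 0.53, edgeR adjusted p = 1.00).

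STAT5A and STAT5B are the paralogous transcription factors of the pathway. They lie side by side on chromosome 12, at chr12:20472037-20499166 on the minus strand and at chr12:20498096-20573159 on the plus strand. Their spans overlap at the ends, and how reads of near-identical copies were divided is not given in the sources used here. STAT5A was at 2.97, 5.66, 3.22, 2.20 and 2.55 FPKM in control 1 to 5. It was at 3.08, 3.39, 2.93, 2.83 and 2.39 FPKM in rpFSH 1 to 5. STAT5B was at 4.29, 8.45, 4.27, 3.14 and 4.86 FPKM in control 1 to 5. It was at 5.96, 4.26, 3.78, 5.10 and 5.20 FPKM in rpFSH 1 to 5. Control 2 was the highest pig and control 4 the lowest on both genes, and the rpFSH pigs lay between them. STAT5A had a log2 fold change of -0.11 (SE 0.242, 95% interval -0.64 to 0.43, edgeR adjusted p = 1.00). For STAT5B it was 0.03 (SE 0.241, 95% interval -0.50 to 0.56, edgeR adjusted p = 1.00).

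**Figure D3:**
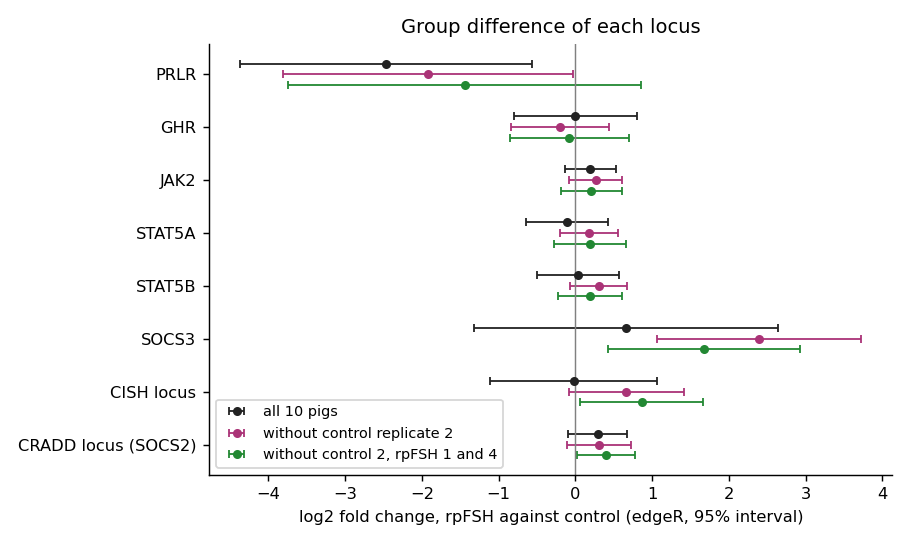
Log2 fold change of the rpFSH treatment group against the control group for each locus (edgeR, points) with its 95% interval (bars), over all 10 pigs, without control 2, and without the 3 pigs with the highest luteal sums. The interval of PRLR is below 0 over all pigs, and that of SOCS3 moves from -1.32 to 2.64 over all pigs to 1.06 to 3.73 without control 2.

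SOCS3, a feedback inhibitor that blocks JAK kinases, had a locus at chr12:3643929-3647009, plus strand. SOCS3 was at 2.99, 36.6, 2.85, 2.89 and 2.72 FPKM in control 1 to 5. It was at 30.7, 2.89, 5.32, 15.8 and 17.8 FPKM in rpFSH 1 to 5. A total of 4 controls lay within 2.72 to 2.99 FPKM, control 2 was the highest of all pigs, and rpFSH 1, 4 and 5 were high while rpFSH 2 stood at the level of the low controls. The log2 fold change over all pigs was 0.66 (SE 0.894, 95% interval -1.32 to 2.64, edgeR adjusted p = 1.00).

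This value of SOCS3 depended on control 2. Without control 2 the log2 fold change was 2.39 (95% interval 1.06 to 3.73, edgeR adjusted p = 0.908), past the limits, where 0.949% of mRNAs passed them on the higher side. Without the 3 pigs with the highest luteal sums it was 1.68 (95% interval 0.43 to 2.93, edgeR adjusted p = 0.996), and without control 2 and control 5 it was 2.37 (95% interval 0.80 to 3.94, edgeR adjusted p = 0.685). SOCS3 was past the limits in both, where 0.547% and 2.02% of mRNAs passed them on the higher side. The 3 pigs with the highest luteal sums were among the 4 with the highest SOCS3, and the remaining one, rpFSH 5, had a luteal sum of 38.0 FPKM with 17.8 FPKM of SOCS3. The part of luteal cells in the SOCS3 levels was not tested.

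CISH, another STAT5-induced inhibitor, had a locus at chr13:33081637-33125598, minus strand. This locus covers the RefSeq genes CISH, at chr13:33086280-33090540, and MAPKAPK3, at chr13:33097329-33125820, a kinase with no locus of its own in the table, so the 2 genes cannot be told apart in its values. The CISH locus was at 0.295, 1.59, 0.386, 0.372 and 0.504 FPKM in control 1 to 5. It was at 0.343, 0.670, 0.387, 0.584 and 0.938 FPKM in rpFSH 1 to 5. Control 2 was again the highest, and 4 of the 5 rpFSH pigs lay above the control median. The CISH locus had a log2 fold change of -0.02 (SE 0.491, 95% interval -1.11 to 1.06, edgeR adjusted p = 1.00). Without the 3 pigs with the highest luteal sums it was 0.86 (95% interval 0.06 to 1.67, edgeR adjusted p = 0.996), within the fold limit.

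SOCS2, an inhibitor known for restraining growth hormone signalling, could be read only within the locus named CRADD at chr5:89306250-89587429, minus strand, in which RefSeq places SOCS2 at chr5:89581081-89587424. CRADD encodes an adapter of cell death signalling, and the values belong to both genes. The locus was at 1.92, 2.44, 2.46, 2.51 and 2.42 FPKM in control 1 to 5. It was at 1.91, 2.83, 3.18, 3.15 and 2.58 FPKM in rpFSH 1 to 5. A total of 4 rpFSH pigs lay above all controls and rpFSH 1 lay below all of them. This SOCS2 and CRADD locus had a log2 fold change of 0.29 (SE 0.173, 95% interval -0.09 to 0.67, edgeR adjusted p = 1.00). When each pig was left out in turn, its log2 fold change was 0.22 to 0.40 (unadjusted edgeR P of 0.016 to 0.258). It passed the limits in 0 of these 10 fits.

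Loci that carry only an identifier from the assembly, called unannotated loci here, gave other readouts at the same places. Of 19909 such loci tested, 3.77% passed the same limits, 2.41% on the lower side. None had an adjusted p (edgeR) under 0.05, while 1319 had an unadjusted P under 0.05 and DESeq2 gave 113 an adjusted p under 0.05. A total of 34 unannotated loci overlapped the 8 loci, of which 31 were tested, and 2 passed the limits, both of them inside PRLR, on its strand. Whether reads were shared between a gene and a locus inside it is not given in the sources used here, so these loci may hold reads of the gene's own transcripts. Of the 31, 16 lay on the opposite strand of the gene.

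The first, MSTRG.14404 at chr16:20628554-20635451, lies between the end of the RefSeq gene PRLR and the end of the longer locus. MSTRG.14404 was at 2.31, 5.20, 1.09, 0.115 and 0.104 FPKM in control 1 to 5. It was at 0.156, 0.322, 0.747, 0.217 and 0.0261 FPKM in rpFSH 1 to 5. Control 1, 2 and 3 were high, as for PRLR, whereas control 5, at 1.22 FPKM of PRLR, was low here. MSTRG.14404 had a log2 fold change of -2.74 (SE 1.16, 95% interval -5.32 to -0.17, edgeR adjusted p = 0.737).

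The second, MSTRG.14405 at chr16:20727644-20729141, lies inside the PRLR locus and outside the RefSeq gene, on its upstream side. It had 213, 44, 110, 0 and 41 counts in control 1 to 5. It had 4, 12, 25, 0 and 0 counts in rpFSH 1 to 5. The controls were higher except for control 4, which had no count, and a count of 0 leaves room for up to 3 counts. MSTRG.14405 had a log2 fold change of -3.36 (SE 1.41, 95% interval -6.50 to -0.23, edgeR adjusted p = 0.737). When pigs were left out in turn, each of these 2 loci stayed past the limits in 4 of 10 fits. Without the 3 pigs with the highest luteal sums neither passed, with log2 fold changes of -1.34 for MSTRG.14404 (95% interval -4.50 to 1.83, edgeR adjusted p = 0.992) and -2.93 for MSTRG.14405 (95% interval -7.00 to 1.13, edgeR adjusted p = 0.980). Without the 2 pigs with the highest ciliated sums MSTRG.14405 passed, at -3.75 (95% interval -7.44 to -0.07, edgeR adjusted p = 0.726), and MSTRG.14404 did not, at -1.99 (95% interval -4.30 to 0.33, edgeR adjusted p = 0.728).

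**Figure D4:**
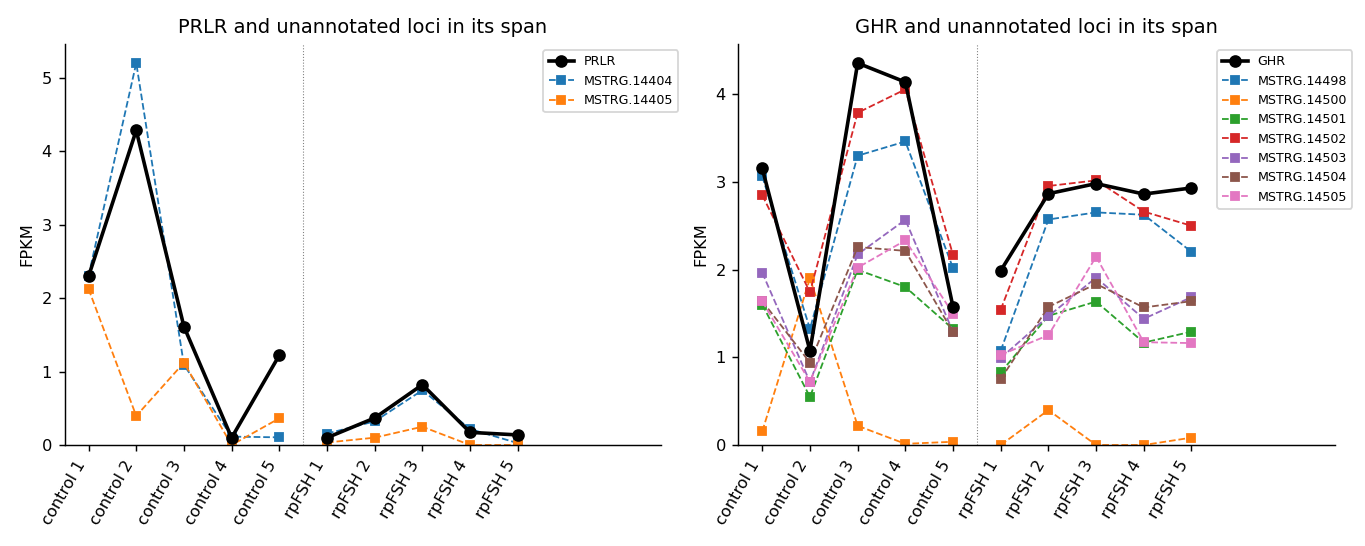
FPKM per pig (vertical axes, linear) of PRLR and the 2 unannotated loci in its span (left), and of GHR and the 7 unannotated loci overlapping it (right). Lines join the pigs of a group for reading only. MSTRG.14404 follows PRLR except in control 5, and 6 of the 7 loci at GHR follow it, while MSTRG.14500 is highest in control 2, where GHR is lowest.

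At GHR, 7 unannotated loci were tested, 5 on the opposite strand, and none passed the limits. The one with the largest count, MSTRG.14498 at chr16:27117897-27190752 on the opposite strand, was at 3.06, 1.32, 3.30, 3.46 and 2.02 FPKM in control 1 to 5. It was at 1.08, 2.57, 2.65, 2.63 and 2.20 FPKM in rpFSH 1 to 5. Its low pigs were rpFSH 1, control 2 and control 5, the same 3 that were lowest on GHR. The log2 fold change of MSTRG.14498 was -0.25 (SE 0.269, edgeR adjusted p = 0.932). JAK2 was overlapped by 5 tested loci, with MSTRG.2615 (chr1:216987754-216997271, opposite strand) as the largest, at a mean of 2.74 FPKM and a log2 fold change of -0.09 (edgeR adjusted p = 0.979). STAT5A was overlapped by 2, of which MSTRG.6077 (chr12:20407561-20491646, same strand, only in part within STAT5A) had a log2 fold change of 0.41 (SE 0.166, edgeR adjusted p = 0.737), within the fold limit. STAT5B was overlapped by 3, with MSTRG.6085 (chr12:20526118-20534396, opposite strand) as the largest, at a log2 fold change of -0.06 (edgeR adjusted p = 0.979). The SOCS2 and CRADD locus was overlapped by 12 tested loci, with MSTRG.26084 (chr5:89397851-89456406, same strand) as the largest, at a log2 fold change of 0.14 (edgeR adjusted p = 0.914). SOCS3 and CISH were overlapped by none.

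Apart from SOCS2, 19 pairs of a gene and an overlapping locus were correlated over the 10 pigs on log2 (FPKM + 1), and 9 of them had adjusted permutation p under 0.05 for both Pearson's r and Spearman's rho. These were both loci of PRLR, 6 of the 7 at GHR and MSTRG.2613 at JAK2. PRLR and MSTRG.14404 had r = 0.914 (permutation p = 0.00063, adjusted p = 0.00399) and rho = 0.758 (permutation p = 0.0142, adjusted p = 0.0300), and r = 0.697 without control 1 and control 2. PRLR and MSTRG.14405 had r = 0.708 (permutation p = 0.0224, adjusted p = 0.0387) and rho = 0.902 (permutation p = 0.00098, adjusted p = 0.00460), and r = 0.922 without the same 2 pigs. Both loci passed the limits in the contrast on which PRLR was selected, so these values hold part of the group difference. On deviations from the group means, PRLR and MSTRG.14405 had r = 0.515 and rho = 0.511, neither with permutation p under 0.05. PRLR and MSTRG.14404 had r = 0.8995 and rho = 0.915 on these deviations, both with permutation p under 0.05. At GHR, the 6 loci had r between 0.759 and 0.925, and all 6 kept r of at least 0.789 without control 2 and control 5. MSTRG.14500, on the opposite strand, had r = -0.568 with GHR (permutation p = 0.0971, adjusted p = 0.123), rho = -0.018 (permutation p = 0.973, adjusted p = 1.00), and r = 0.223 without control 2 and control 5, so the negative value rested on those pigs. Points of 1 pair come from the same libraries.

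Levels of different genes were set side by side on FPKM, which is per length. The order of the means over 10 pigs was SOCS3 at 12.1, STAT5B at 4.93, JAK2 at 3.54, STAT5A at 3.12, GHR at 2.79, PRLR at 1.11 and the CISH locus at 0.607 FPKM. The values named JAK2 and CISH are those of loci that also hold other genes, here and in the pairs and likenesses below. Of the 6 neighbours in this order, only STAT5B and JAK2 differed beyond their spread, with STAT5B higher in 10 of 10 pigs by 0.44 ± 0.37 on the log2 scale (SD, two-sided exact permutation p = 0.00195, adjusted p = 0.0117). GHR was above PRLR in 9 of 10 pigs by 2.32 ± 2.31 on the log2 scale, and control 2 was the exception (exact permutation p = 0.0176, adjusted p = 0.0527). SOCS3 was above STAT5B in 5 of 10 pigs (exact permutation p = 0.176, adjusted p = 0.264). JAK2 and STAT5A (adjusted p = 0.195), STAT5A and GHR (adjusted p = 0.670) and PRLR and CISH (adjusted p = 0.965) did not pass the exact permutation test. PRLR was above the CISH locus in 5 of 10 pigs, and their mean difference on the log2 scale was -0.03. PRLR varied most, 43.4-fold between the lowest and the highest control, and SOCS3 varied 13.5-fold over all pigs. GHR varied 4.05-fold and JAK2 1.74-fold over all pigs.

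Pairs of the 7 matched genes were correlated over the 10 pigs, and none of the 21 pairs had adjusted permutation p under 0.05 for both r and rho, while 2 had it for r and 0 for rho. The 2 pairs with the largest r in size both held STAT5B. GHR and STAT5B had r = -0.828 (permutation p = 0.00305, adjusted p = 0.0320) and rho = -0.721 (permutation p = 0.0235, adjusted p = 0.247), and r = -0.748 without control 2 and control 5. STAT5B and SOCS3 had r = 0.819 (permutation p = 0.000950, adjusted p = 0.0199) and rho = 0.673 (permutation p = 0.0390, adjusted p = 0.273), and r = 0.794 without control 2 and control 4. Without the 3 pigs with the highest luteal sums, r over the 7 others was 0.474 for STAT5B and SOCS3 and -0.572 for GHR and STAT5B. PRLR and STAT5A had r = 0.718 (permutation p = 0.0201, adjusted p = 0.110) and rho = 0.588 (permutation p = 0.0817, adjusted p = 0.429), and r = 0.323 without control 1 and control 2, so r depended in part on those pigs. On deviations from the group means this pair had r = 0.819 (permutation p = 0.0104) and rho = 0.588 (permutation p = 0.0816). Its r was 0.502 without the 3 pigs with the highest luteal sums. PRLR and GHR, the 2 receptors, had r = -0.419 (permutation p = 0.228, adjusted p = 0.342) and rho = -0.127 (permutation p = 0.734, adjusted p = 0.760), and r = 0.023 without control 1 and control 2.

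The genes whose pattern over the 10 pigs was most like each of these were sought among 11308 protein-coding loci with a mean of at least 1 FPKM, as a description without a test. For PRLR they were SLC46A2 (r = 0.901), SLC46A3 (r = 0.891), both solute carriers, and SH3BGRL2 (r = 0.887). For GHR they were TCF21, a transcription factor of mesenchymal cells (r = 0.972), CEP162, a centriole protein (r = 0.956), and ZNF354B (r = 0.955). For JAK2 they were MPP1 (r = 0.922), SDCBP (r = 0.917) and NUDT7 (r = 0.902). For STAT5A they were MYO6, a myosin (r = 0.944), ADAP2 (r = 0.933) and a locus that joins ENSSSCG00000009953 and ENSSSCG00000033385 (r = 0.923). For STAT5B they were PDLIM5 (r = 0.960), SEC62, a part of the translocation machinery of the endoplasmic reticulum (r = 0.959), and SYNJ1 (r = 0.959). For SOCS3 they were EPHA2, an ephrin receptor (r = 0.972), SERPINB8 (r = 0.965) and TIMP1, an inhibitor of metalloproteinases (r = 0.960). For CISH they were RFK (r = 0.929), TRIB1 (r = 0.923) and ATF6, a sensor of stress in the endoplasmic reticulum (r = 0.897). TIMP1 spanned 26.9 to 1795 FPKM.

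Of the ligands, prolactin itself (PRL) was detected at a low level, between 0.793 and 2.81 FPKM, averaging 1.46 ± 0.459 FPKM in controls and 1.45 ± 0.799 FPKM after rpFSH (SD, n = 5 each). Its log2 fold change was 0.07 (SE 0.372, edgeR adjusted p = 1.00). Growth hormone (GH1) was listed at the lowest value that the table writes, 0.0001 FPKM, in all 10 pigs. IGF1, a growth factor induced by growth hormone, was at 2.15, 1.20, 1.58, 2.63 and 4.97 FPKM in control 1 to 5. It was at 1.39, 4.45, 1.83, 2.13 and 7.44 FPKM in rpFSH 1 to 5, with the highest level in pig 5 of each group. The log2 fold change of IGF1 was 0.54 (edgeR adjusted p = 1.00).

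The other genes of the pathway were grouped into lists of ligands, other class I cytokine receptors, other JAKs and STATs, other negative regulators, adapters and parallel branches, and genes that respond to growth hormone, prolactin or STAT5. None of the 86 tested genes of these 6 lists passed both limits. On the higher side, 8 of the 86 (9.30%) had an unadjusted P under 0.05, against 1.54% of all mRNAs. On the lower side 0 of the 86 had one, against 3.22% of all mRNAs. The median log2 fold change was 0.08 over the 86 genes and -0.01 over all mRNAs, with 58 of the 86 above 0. A further 9 luteal genes that respond to prolactin, of which 8 were tested, and 15 immediate early genes, of which 13 were tested, had no gene past both limits over all pigs.

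The counts of the 6 lists moved with the pigs that stood apart. On the higher side, 7 of the 86 genes had an unadjusted P under 0.05 without the 3 pigs with the highest luteal sums (8.14%, against 1.75% of all mRNAs), and 14 without the 2 with the highest ciliated sums (16.3%, against 4.54%). On the lower side the count was 0 in both. Past both limits, all on the higher side, were 1 and 4 of the 86, where 0.547% and 2.02% of all mRNAs passed. Without control 5 alone, 7 had an unadjusted P under 0.05 on the higher side (8.14%, against 2.47%). On the lower side 1 had it (1.16%, against 2.31%). Past both limits were then 2 on the higher side (2.33%, against 0.995%) and 1 on the lower side (1.16%, against 1.5%). Without control 2 alone, 3 passed both limits, all on the higher side (3.49%, against 0.949%). The luteal list depended on control 2. Without that pig 5 of its 8 tested genes passed both limits on the higher side, against 0.949% of all mRNAs, and its median log2 fold change went from -0.05 to 1.94. Without the 3 pigs with the highest luteal sums, 0 of the 8 passed and the median was 0.03. The 5 luteal markers whose sum set these 3 pigs apart are all among the 8 genes. These shifts therefore follow in part from how the pigs were chosen.

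**Figure D5:**
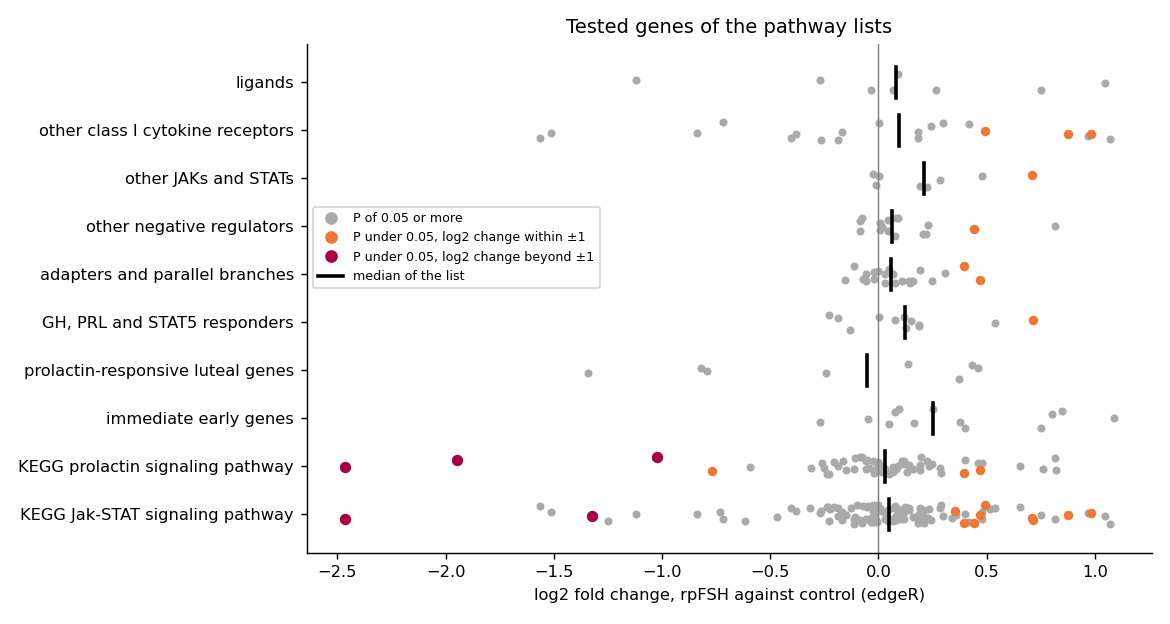
Log2 fold change (horizontal axis, edgeR) of each tested gene in each list, 1 point per gene, with the list's median as a bar. Points with an unadjusted P under 0.05 lie on the higher side in the first 6 lists, and the 4 genes past both limits in the KEGG lists, PRLR among them, lie on the lower side.

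The 8 genes with an unadjusted P under 0.05 are named here after their values were seen. They were the receptors IL6ST (log2 fold change 0.49), OSMR (0.88) and IL4R (0.98), the transcription factor STAT4 (0.71), the phosphatase PTPN2 (0.44), the adapter SHC1 (0.39), the kinase AKT2 (0.47) and the STAT-induced kinase PIM1 (0.71). AKT2 and the others had edgeR adjusted p of 0.992 or above. Without the 3 pigs with the highest luteal sums, OSMR, IL4R and STAT4 had an unadjusted edgeR P of 0.118, 0.136 and 0.0716. Without the 2 pigs with the highest ciliated sums, STAT4 and PTPN2 had an unadjusted edgeR P of 0.134 and 0.0885. In that fit IL4R (log2 fold change 1.38) and OSMR (1.003) passed both limits. IL6ST, SHC1, AKT2 and PIM1 kept an unadjusted P under 0.05 in both fits. Without control 5 alone, IL6ST and STAT4 had an unadjusted edgeR P of 0.0554 and 0.0683. Without control 2 alone, OSMR and STAT4 had an unadjusted edgeR P of 0.0535 and 0.0787. In each of these fits without a single pig, the others kept an unadjusted P under 0.05. IL6ST, the signal-transducing receptor shared by the IL-6 family, had the highest level among the receptors, at 27.2 to 40.7 FPKM in controls. It was at 44.6, 27.5, 36.0, 60.6 and 38.8 FPKM in rpFSH 1 to 5, so the groups overlapped and rpFSH 2 lay among the lowest pigs. PIM1 was between 2.13 and 4.89 FPKM in controls, with control 2 as the lowest. It was at 5.66, 5.64, 5.31, 5.61 and 9.59 FPKM in rpFSH 1 to 5, so the groups did not overlap, which held for 0.626% of all mRNAs in either direction.

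The most abundant genes of the remaining lists did not pass the limits over all pigs. They were STAT3, with a mean of 10.98 FPKM and a log2 fold change of 0.29 (edgeR adjusted p = 1.00), CBL, a ubiquitin ligase, at 11.13 FPKM and 0.01 (edgeR adjusted p = 1.00), and CCND2, a cyclin of the cell cycle, at 20.8 FPKM and -0.19 (edgeR adjusted p = 1.00). SHC1, at a mean of 11.6 FPKM, was the most abundant of the adapters. FOS was at 21.8 FPKM with a log2 fold change of 0.40 (edgeR adjusted p = 1.00). CYP11A1, which starts steroid synthesis and is one of the luteal markers, was at 29.3, 1758, 34.4, 5.37 and 4.85 FPKM in control 1 to 5. It was at 787, 14.7, 7.48, 178 and 15.5 FPKM in rpFSH 1 to 5. Control 2 was the highest pig, and rpFSH 1 and rpFSH 4 were next, as they were on the luteal sum of which CYP11A1 is a part. The log2 fold change of CYP11A1 turned with control 2, from -0.82 over all pigs (95% interval -4.68 to 3.04, edgeR adjusted p = 1.00) to 3.47 without it (95% interval 0.16 to 6.79, edgeR adjusted p = 0.908), which is past the limits, and it was -0.47 without the 3 pigs with the highest luteal sums (95% interval -2.24 to 1.29, edgeR adjusted p = 0.996).

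The table's own KEGG column placed 61 tested loci in the prolactin signaling pathway and 115 in the Jak-STAT signaling pathway. In the first, 3 passed the limits on the lower side (4.92%) and 0 on the higher side, against 2.58% and 0.508% of all mRNAs. These were PRLR, MAPK10, a stress-activated kinase (log2 fold change -1.02, edgeR adjusted p = 0.992), and ENSSSCG00000031086, described in the table as the luteinizing hormone beta chain (log2 fold change -1.95, edgeR adjusted p = 1.00). In the second, 2 passed on the lower side (1.74%) and 0 on the higher side, PRLR again and ENSSSCG00000016093, which the table describes as an aldehyde oxidase (log2 fold change -1.32, edgeR adjusted p = 0.992). By unadjusted P under 0.05 alone, 2 loci of the first were higher (3.28%) and 4 lower (6.56%), and 9 of the second were higher (7.83%) and 2 lower (1.74%), against 1.54% higher and 3.22% lower over all mRNAs. Without the 3 pigs with the highest luteal sums, 0 loci of either list passed the limits on the lower side. Without the 2 with the highest ciliated sums 0 of the first and 1 of the second, ENSSSCG00000016093, did, and ENSSSCG00000031086 turned to a log2 fold change of 0.54 (95% interval -0.45 to 1.52, edgeR adjusted p = 0.838). On the higher side, 1 of the first and 2 of the second passed without the luteal-high pigs (1.64% and 1.74%, against 0.547% of all mRNAs). Without the ciliated-high pigs these counts were 1 and 5 (1.64% and 4.35%, against 2.02%). The 2 lists share genes, and both hold PRLR, on whose difference the genes described here were selected. The most abundant gene of the second list was IL6ST.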

How the data were processed

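Total RNA of frozen ovary tissue from 10 gilts was sequenced, 1 library per pig. The study's methods and the sample labels differ on the library (rRNA removal or poly(A) selection) and the sequencer (HiSeq or NovaSeq). Per its methods, the authors used Cutadapt for trimming, Hisat2 and Bowtie2 for mapping, and StringTie with Ballgown for FPKM. The submitters' processing notes list Bowtie 0.12.2, HISAT2 2.0, StringTie 1.3.0 and Sscrofa11.1. The deposited table gives a whole-number count and an FPKM per locus and pig. How the authors made the counts is not given in the sources used here. Its coordinates were read beside RefSeq gene positions of the same build.

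Counts of 15170 protein-coding loci (mean FPKM 0.1 or above) were compared with the quasi-likelihood test of edgeR 4.0.16 (TMM, library size over all loci, R 4.3.3). The 19909 unannotated loci were fitted separately. P was adjusted by Benjamini-Hochberg over all loci of a fit. The study had tested FPKM with Ballgown, for which limma 3.58.1 on log2 (FPKM + 1) was an alternative, as was DESeq2 1.42.0. With limma, the fold used in the limits was the log2 ratio of group mean FPKM, not limma's own estimate on logs. Correlations used 100000 permutations (seed 1), and levels were compared by exact sign flips over pigs, with Python 3.11.15, numpy 2.4.6, pandas 2.3.3 and scipy 1.17.1. As SOCS2 had no locus of its own, 21 pairs and 6 neighbours were tested. The fit was tested on simulated data.

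The genes and all lists were chosen with earlier results of these data known, and the fits of the lists without pigs that stood apart were chosen after seeing the data. Named are the 8 genes, the overlapping locus with the largest count and any called, the called (at most 5) and the most abundant gene of each list, PRL, GH1, IGF1 and IL6ST, and the 3 most alike loci. The most abundant locus of 1 list is not reported here. The study states that its gilts had a common genetic background, day of birth and breeding environment. Nothing says whether the pigs shared litters or pens. P sets the group difference against the spread between these pigs. Counting intervals and floors cover counting error only. The labels spell the treatment fpFSH and the study spells it rpFSH. The qRT-PCR and transcript-level values were not analysed here.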

Additional observations from a re-analysis of the deposited data

Results flagged for a closer look

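Of 28 sets of 5 pigs (the 8 loci and, outside SOCS2, the largest and the called overlapping loci, by group), 5 held a pig whose gap to the nearest other was large against the range of the set, past Dixon's 95% critical value, and chance gives about 1 in 20. GHR was lowest in rpFSH 1, at 1.99 FPKM, with the next rpFSH pig at 2.86 FPKM. SOCS3 was highest in control 2, at 36.6 FPKM, with the next control at 2.99 FPKM. The CISH locus was highest in control 2, at 1.59 FPKM, with the next control at 0.504 FPKM. The SOCS2 and CRADD locus was lowest in control 1, at 1.92 FPKM, with the next control at 2.42 FPKM. MSTRG.14498, which overlaps GHR on the opposite strand, was lowest in rpFSH 1, at 1.08 FPKM, with the next at 2.20 FPKM. Control 2 and rpFSH 1 are the 2 pigs with the highest luteal sums, and the part of luteal cells in these values was not tested.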

How the results depend on the processing

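Of 15170 mRNAs, 468 passed the limits, against 172 with limma on log2 (FPKM + 1), 236 with a pseudocount of 0.1, 145 with a mean FPKM of at least 1, 722 with P alone, 0 with adjusted p under 0.05 and 183 without the 3 pigs with the highest luteal sums. Of the unannotated loci 751 passed, against 455, 491 and 198 under the first 3 of these settings, 1319 with P alone and 0 with adjusted p. Of the 8 loci 1 passed, against 0 with adjusted p and 1 to 2 when each pig was left out, where the second was SOCS3. Of the 19 tested loci overlapping them outside SOCS2, 2 passed, against 1 with a mean FPKM of at least 1 and 0 with adjusted p. The count was 0 to 3 when each pig was left out. It was 1 without the luteal-high pigs (MSTRG.2614 at JAK2, named after its values were seen) and 1 without the ciliated-high pigs (MSTRG.14405). In the SOCS2 and CRADD locus, MSTRG.26080 passed in 2 of 25 alternative fits. MSTRG.26087, with counts in rpFSH 5 alone and not in the main fit, passed in its 1 fit. Neighbours that differed numbered 1 to 3, the 3 without control 2, and pairs with overlapping loci 5 to 9 (9 over all pigs), the 5 without control 3. PRLR stayed lower in every alternative, with log2 fold changes of -3.19 to -1.44 and adjusted p of 0.143 to 1.00, and lost its call in both fits without the pigs with high marker sums. The causes were not tested.

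Log2 fold changes near 0 changed sign. GHR was at 0.00069 with RLE factors and with DESeq2, 0.00071 with no filter and 0.0043 with filterByExpr, and at -0.20 to 0.22 when each pig was left out. STAT5A was at 0.19 without the 3 luteal-high and 0.14 without the 2 ciliated-high pigs, and at -0.24 to 0.17 when each pig was left out. STAT5B was at -0.021 with total counts, and at -0.12 to 0.30 when each pig was left out. Its log2 ratio of group mean FPKM, the fold set beside limma's P at either pseudocount, was -0.042. CISH was at 0.00035 with upper-quartile factors, 0.86 without the luteal-high and 0.80 without the ciliated-high pigs, and at -0.26 to 0.66 when each pig was left out.

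With the replicate number as a block, 190 mRNAs, 495 unannotated loci and 1 overlapping locus outside SOCS2 passed. GHR was at 0.17 and CISH at 0.19, and PRLR still passed. Deviations of same-numbered pigs correlated at -0.294 to -0.027, and 0 of 5 controls correlated best with their own number. These values gave no sign of pairs by number, but with 5 pigs per group they cannot exclude them.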
